A study of Homo sapiens with 12 samples.

Results

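Interferon-stimulated genes are the genes that cells switch on when interferons bind their receptors. All 44 genes of a list of well-known members of this group were found, by gene symbol, in a count table of 57905 genes from MDA-MB-231 cells, and 43 of the 44 had enough reads to be tested; CMPK2 did not. The list was a set of names and held no value from the samples, but it was chosen with earlier results of these data known. MDA-MB-231 is an established human triple-negative breast cancer cell line, so every value comes from 1 line grown without added interferon, per the labels' protocols.

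The study had 4 groups of 3 RNA-seq libraries each. All 4 groups received 0.01% DMSO with 0.05% water, and the vehicle group received nothing else. The SFN group also received 1 µM SFN, the ZA group 0.5 µM ZA, and the SFN+ZA group both compounds at these doses. Treatment lasted 48 h in every case. The abbreviations are not spelled out in the labels; SFN usually stands for sulforaphane, a plant isothiocyanate, and ZA for zoledronic acid, a bisphosphonate. Dishes were plated in triplicate, and nothing states that the 3 libraries of a group came from separate cultures, so p-values measure a spread that may be technical.

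Type I and type III interferons signal through receptor-bound JAK kinases that phosphorylate STAT proteins. STAT2 and IRF9 are subunits of the complex ISGF3, which binds the interferon-stimulated response element (ISRE) in the promoters of many of the genes described here. The products sense viral RNA, bind or cut it, block membrane fusion and virus release, or attach the ubiquitin-like protein ISG15 to other proteins, and many cancer cell lines keep some of them on without added interferon.

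The promoters of 5 members whose values recur below are shown, because each holds more than 1 copy of the core of an ISRE. They come from RefSeq on GRCh38.p14 and run from 250 bases before to 50 bases after the gene start, read on the gene's strand. IFIT1 lies at chr10:89392373-89392672 on the plus strand, IFIT3 at chr10:89327747-89328046 on the plus strand, ISG15 at chr1:1013247-1013546 on the plus strand, HERC5 at chr4:88456869-88457168 on the plus strand and DDX60 at chr4:168318703-168319002 on the minus strand. Capitals mark the core searched for, a pair of GAAA spaced by any 2 bases, on either strand, with overlapping matches counted apart.
IFIT1: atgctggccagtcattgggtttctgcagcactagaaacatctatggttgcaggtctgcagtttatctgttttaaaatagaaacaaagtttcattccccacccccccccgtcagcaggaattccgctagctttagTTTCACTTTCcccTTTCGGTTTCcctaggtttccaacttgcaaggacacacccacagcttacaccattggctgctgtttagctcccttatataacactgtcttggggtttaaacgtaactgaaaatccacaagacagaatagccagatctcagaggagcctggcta
IFIT3: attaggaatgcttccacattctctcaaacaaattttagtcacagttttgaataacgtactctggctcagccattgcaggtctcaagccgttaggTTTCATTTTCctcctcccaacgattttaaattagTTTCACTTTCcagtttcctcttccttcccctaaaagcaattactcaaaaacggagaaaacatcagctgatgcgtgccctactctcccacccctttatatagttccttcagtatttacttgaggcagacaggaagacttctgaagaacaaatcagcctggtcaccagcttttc
ISG15: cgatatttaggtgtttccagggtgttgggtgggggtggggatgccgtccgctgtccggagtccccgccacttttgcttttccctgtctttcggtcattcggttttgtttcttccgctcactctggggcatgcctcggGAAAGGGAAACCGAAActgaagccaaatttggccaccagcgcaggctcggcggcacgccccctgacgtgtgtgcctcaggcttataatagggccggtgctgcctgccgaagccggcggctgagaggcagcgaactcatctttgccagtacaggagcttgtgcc
HERC5: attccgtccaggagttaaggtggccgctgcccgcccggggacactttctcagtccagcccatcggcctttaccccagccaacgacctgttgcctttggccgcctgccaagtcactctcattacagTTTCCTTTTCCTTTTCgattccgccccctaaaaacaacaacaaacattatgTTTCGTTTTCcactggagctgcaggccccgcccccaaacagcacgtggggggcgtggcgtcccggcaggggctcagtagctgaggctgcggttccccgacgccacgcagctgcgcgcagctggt
DDX60: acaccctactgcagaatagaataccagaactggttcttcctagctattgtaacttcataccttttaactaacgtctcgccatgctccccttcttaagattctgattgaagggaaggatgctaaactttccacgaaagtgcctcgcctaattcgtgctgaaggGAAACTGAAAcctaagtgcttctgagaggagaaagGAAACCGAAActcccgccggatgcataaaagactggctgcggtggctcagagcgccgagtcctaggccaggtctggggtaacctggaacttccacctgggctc

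In IFIT1 the matches began at positions -116 and -103 from the gene start, in IFIT3 at -156 and -122, and in ISG15 at -113 and -107, where they overlap. Of the 44 genes, 37 had a promoter in the RefSeq table, and 21 of these (56.8%) held the core, against 1255 of 35116 promoters of the same length over all genes (3.57%). More than 1 match occurred in 15 of the 37 and in 91 of all promoters. The other interferon element, GAS, was searched as TTCNNNGAA, which reads the same on both strands in its fixed letters. It occurred in 9 of the 37 promoters (24.3%) and in 7.66% of all. Both motifs occurred in 5 of the 37, DDX60 among them, and 3 GAS matches overlapped an ISRE core; GAS matches are not in capitals. STAT2 held neither motif in this window. A match is a description of letters and not a measured binding site.

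Depth ran from 15.3 to 25.4 M (mega) counts per library. Vehicle 2 and SFN 2 stood apart from the other 10 libraries along the first principal component, at 67.4 and 170 against -47.5 to -3.99. Over all genes, the deviation of a library from the median of the 12 correlated with the GC content of the transcript. The Spearman rho was -0.805 in SFN 2, -0.604 in vehicle 2 and between -0.47 and 0.644 in the others. Markers of the line's mesenchymal state, such as VIM, CD44 and AXL, summed to 4884 to 6837 CPM (counts per M of a library), and all 8 of 8 were tested. Of 8 luminal markers 5 were tested, and the 8 together summed to 289 to 468 CPM. KRT18 was the highest of them, at 186 to 303 CPM, and PGR was at 0 in every library. Of 7 fibroblast and endothelium markers 3 were tested, and the 6 found by symbol summed to 13.5 to 33.2 CPM. Of 11 immune cell markers, 5 were at 0 in every library, with CD3E, MS4A1, LILRA4 and CLEC4C among them. The 11 together summed to 0.567 to 2.41 CPM. CD14 was the only 1 of them tested, at 0.567 to 2.41 CPM, and made up most of that sum. By these markers RNA from immune cells was low, but it was not shown to be absent. In RNA from whole dishes, fewer cells expressing a gene and less of its RNA per cell cannot be told apart.

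Most of these genes were expressed without added interferon, at very unequal levels. Together the 44 genes took 0.208 to 0.229% of all counts in a library. Divided by gene length, IFITM3, which blocks the fusion of enveloped viruses, was highest, at a mean level of 137 CPM per kb over the 12 libraries. BST2, also called tetherin, which holds new virus particles at the cell surface, averaged 119 CPM per kb. ISG15 averaged 110 CPM per kb, and IFIT3, which helps other IFIT proteins bind foreign RNA, 46.4 CPM per kb. At the low end stood RSAD2, whose product viperin makes a chain-terminating nucleotide, at 0.175 CPM per kb, and its neighbour CMPK2, a mitochondrial nucleotide kinase, at 0.0282 CPM per kb.

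The upper end of this order was not the same in every library. IFITM3 had 243, 96.0 and 228 CPM in vehicle, 202, 52.7 and 159 in SFN, 181, 225 and 229 in ZA, and 205, 200 and 198 in SFN+ZA. BST2 had 175, 119 and 135 CPM in vehicle, 124, 36.2 and 143 in SFN, 134, 148 and 174 in ZA, and 151, 124 and 136 in SFN+ZA. In both genes SFN 2 was the lowest of the 12 libraries, and the ranges of all 4 groups overlapped apart from that library; with GC contents of 56.9% and 57.3% both belong to the GC-rich members.

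Messenger RNA of the 10 interferon genes examined was at or near 0. Of 10 interferon genes (IFNB1, IFNA1, IFNA2, IFNE, IFNK, IFNW1, IFNG, IFNL1, IFNL2 and IFNL3), 9 had 0 counts in all 12 libraries, where 3 counts over 210 M reads allow a level of up to 0.014 CPM. IFNL1 had at most 2 counts in any library. Intervals and floors of this kind cover counting error only. The receptor and signalling genes were present, and all 16 of 16 were tested.

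**Figure D1:**
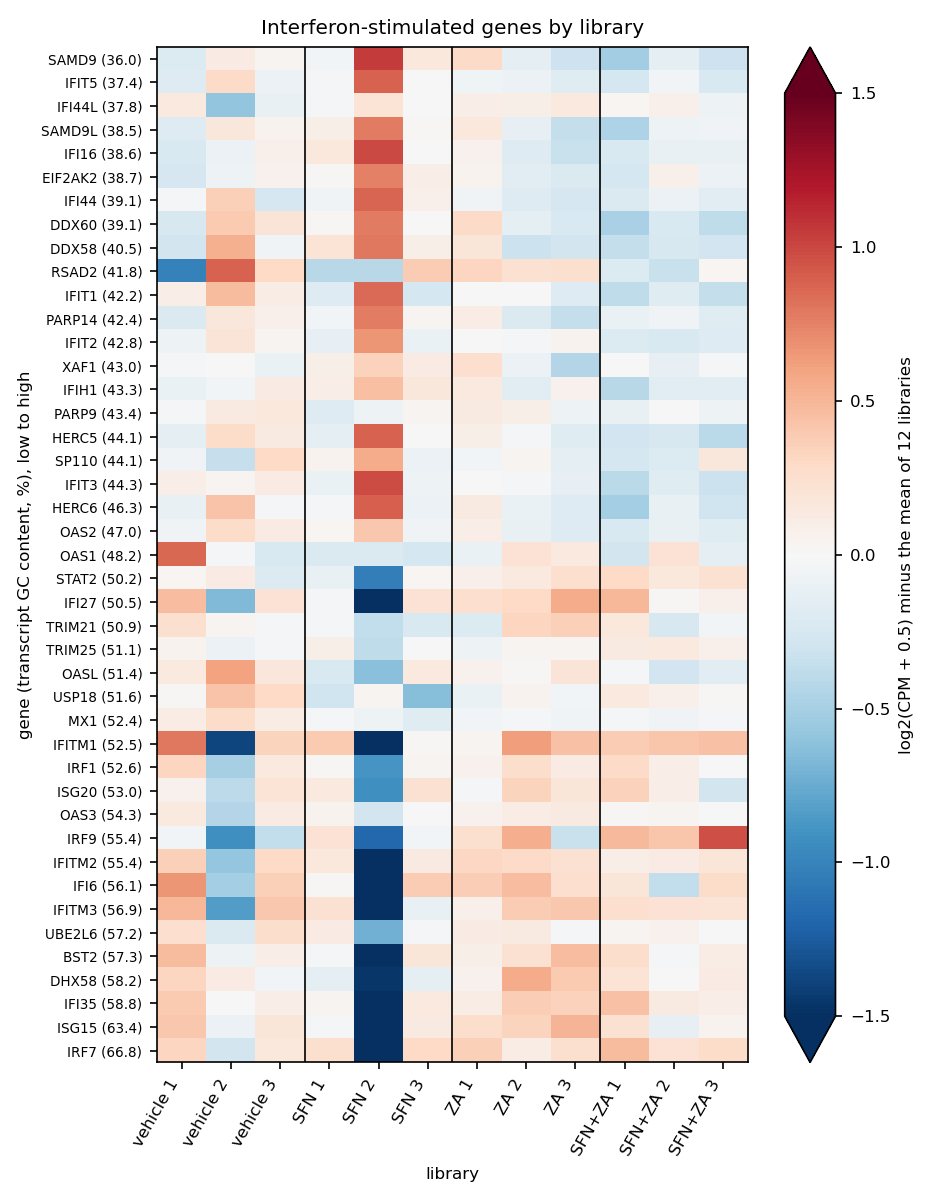
Each row is 1 of the 43 tested interferon-stimulated genes, ordered by the GC content of its transcript (%, in brackets), and each column 1 of the 12 libraries; colour gives log2(CPM + 0.5) minus the mean of the 12 libraries, with the largest values cut to the ends of the colour scale. SFN 2 runs from red in the GC-poor rows (median 0.78) to blue in the GC-rich rows (median -1.18), while most cells of the other columns are paler.

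The SFN 2 library carried the widest deviations of these genes, in opposite directions for GC-poor and GC-rich members. On the log2(CPM + 0.5) scale its 22 members at or under 48.2% GC lay a median of 0.78 above the mean of the 12 libraries, and its 21 members above that lay a median of -1.18 from it. It was the highest of the 12 libraries for 19 members, whose median GC content was 42.2%, and the lowest for 18, whose median was 55.4%. Over all genes tested, SFN 2 was the highest library for 33.8% and the lowest for 38.4%. Across the 43 members the rho between deviation and GC content was -0.83 in SFN 2 and -0.471 in vehicle 2. The members' deviations were taken from the mean of the 12 libraries, and those over all genes from the median. These correlations are across genes of 1 library, which share its depth and preparation, and are given as a description. GC content ran from 36.0% in SAMD9 to 66.8% in IRF7. Fits without these 2 libraries are given beside the comparisons that follow.

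**Figure D2:**
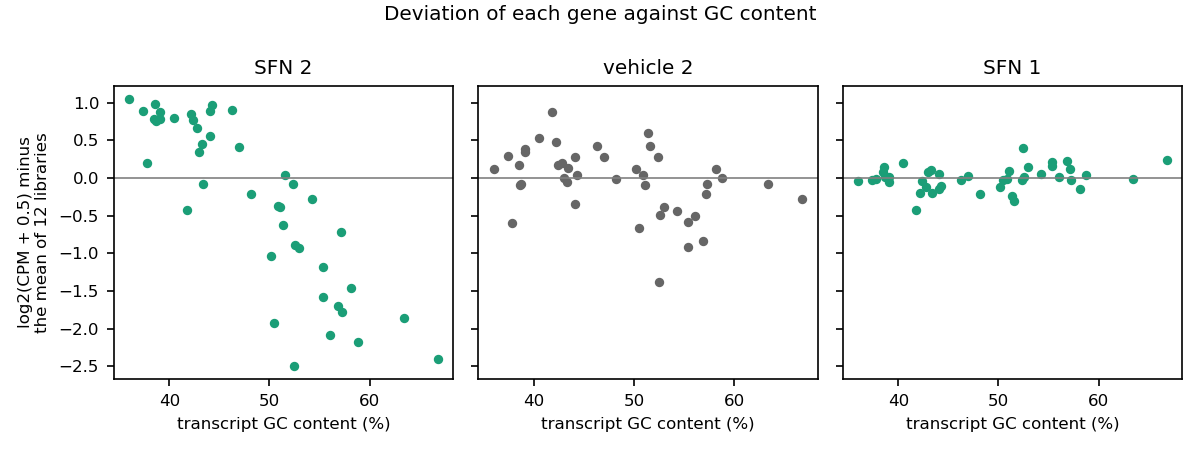
Each point is 1 of the 43 tested interferon-stimulated genes; the x axis is the GC content of its transcript (%) and the y axis its log2(CPM + 0.5) in the named library minus the mean of the 12 libraries. The points fall steeply with GC content in SFN 2 (rho -0.83), less so in vehicle 2 (rho -0.471), and lie near 0 in SFN 1 (rho 0.24).

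The combination was first compared with ZA alone, which asks what SFN adds to ZA. Values of most members were slightly lower in SFN+ZA, and no member passed the test. Of the 43 tested members, 32 had a log2 fold change below 0, and the median was -0.11, against a median of -0.002 and a share of 50.5% below 0 over all 15142 genes tested. With edgeR's quasi-likelihood test and Benjamini-Hochberg adjustment, 0 members were called at an adjusted p under 0.05 (0.0% of all genes were called), the lowest adjusted p of a member was 1.0, and 0 members had an unadjusted p under 0.05 (1.05% of all genes did). DESeq2 also called 0 members and gave 0 an unadjusted p under 0.05 (1.33% of all genes). In 10 members the 3 SFN+ZA libraries lay below all 3 ZA libraries in CPM, a pattern seen in 5.77% of all genes, and in 1 member they lay above, as in 6.99% of all genes. The 10 members are 23.3% of the 43, and the 1 is 2.33%. The 2 groups also differed in their GC trends over all genes. The rho was -0.47 in ZA 1, but 0.562 in ZA 2 and 0.634 in ZA 3. In SFN+ZA 1, 2 and 3 it was 0.644, 0.23 and 0.369. Neither ZA nor SFN+ZA holds vehicle 2 or SFN 2, but the test takes its spread from all 12 libraries. Fitted to the other 10 libraries, 7 members had an unadjusted p under 0.05, all lower in SFN+ZA, where 2.89% of 15353 genes were lower at that threshold, and 0 were called (0.0% of those genes; lowest adjusted p 0.654). With an offset for GC content added to that fit, 13 members had an unadjusted p under 0.05, all lower, where 5.69% of all genes were; 0 were called, and the lowest adjusted p was 0.0538 for ISG15.

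The summed level of all 44 members, CMPK2 included, showed the same order. It was 2244, 2223 and 2203 CPM in ZA 1, 2 and 3, and 2105, 2111 and 2068 CPM in SFN+ZA 1, 2 and 3. In vehicle it was 2288, 2099 and 2283 CPM, and in SFN 2175, 2375 and 2153 CPM. The SFN+ZA sums therefore lay below every ZA and SFN sum, while vehicle 2 fell among them.

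The first family is that of the IFIT proteins, some of which bind RNA that lacks the cap marks of the cell's own messengers, and the OAS proteins, which make the messenger that activates RNase L. All 8 tested members of this family were below 0 against ZA, with a median log2 fold change of -0.21. IFIT3 (chromosome 10, 91087651 to 91100728 on GRCh37/hg19) had 119, 117 and 109 CPM in ZA and 89.7, 105 and 94.8 CPM in SFN+ZA. No ZA library reached down to SFN+ZA, and the means were 115 ± 5.59 and 96.5 ± 7.81 CPM (SD, n = 3 each). The log2 fold change was -0.25 ± 0.25 (SE), with an adjusted p of 1.0 by edgeR.

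IFIT2, whose gene lies in the same cluster (chromosome 10, 91061712 to 91069033), had 81.1, 79.7 and 84.3 CPM in ZA and 70.6, 69.3 and 71.0 CPM in SFN+ZA. These groups did not overlap either, and the log2 fold change was -0.22 ± 0.20 (edgeR adjusted p = 1.0). IFIT1 (chromosome 10, 91152303 to 91163745) had 69.1, 68.9 and 60.3 CPM in ZA and 52.9, 60.8 and 53.7 CPM in SFN+ZA. Here ZA 3 and SFN+ZA 2 overlapped, with a log2 fold change of -0.24 ± 0.27. All 3 of these genes overlap LIPA, a lysosomal lipase gene on the other strand, and the strand setting of the counting was not given, so reads of the overlap cannot be assigned with certainty. LIPA itself averaged 146 ± 28.8 CPM in ZA and 119 ± 10.5 in SFN+ZA. Its part in the IFIT values was not tested. IFIT5, the member of the cluster that overlaps no gene, had 53.3, 52.4 and 49.4 CPM in ZA and 46.5, 54.2 and 47.7 in SFN+ZA, with a log2 fold change of -0.06 ± 0.24.

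Among the OAS genes, OASL, an OAS-like protein that lacks the enzyme activity and binds the RNA sensor RIG-I, had 24.6, 23.8 and 26.9 CPM in ZA. In SFN+ZA it had 23.1, 19.2 and 20.9 CPM. The groups did not overlap, and the log2 fold change was -0.25 ± 0.21 (edgeR adjusted p = 1.0). OAS3, the largest of the OAS enzymes, had 37.8, 39.1 and 39.5 CPM in ZA and 36.6, 37.1 and 36.3 CPM in SFN+ZA. Its groups did not overlap although the log2 fold change was only -0.08 ± 0.17. Its SD was 0.918 CPM in ZA and 0.416 CPM in SFN+ZA.

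Of the 6 RNA and DNA sensors and helicases, 5 were below 0 against ZA, with a median of -0.21. DDX60, a helicase reported to promote signalling by RNA sensors (chromosome 4, 169137444 to 169239958), had 68.0, 50.6 and 47.5 CPM in ZA and 39.6, 47.5 and 42.6 CPM in SFN+ZA. These groups were apart, although their nearest libraries were equal to 3 digits, and the log2 fold change was -0.36 ± 0.25 (edgeR adjusted p = 1.0). IFIH1, which encodes MDA5, a sensor of long double-stranded RNA, had the lowest unadjusted p of all members in this comparison. It had 23.9, 19.2 and 22.6 CPM in ZA and 16.0, 19.1 and 19.3 CPM in SFN+ZA. The groups overlapped slightly, and the log2 fold change was -0.27 ± 0.16 (unadjusted p = 0.124, edgeR adjusted p = 1.0). EIF2AK2, the kinase PKR that halts translation on binding double-stranded RNA, stood at 0.02 ± 0.20 and IFI16, a nuclear DNA sensor, at -0.01 ± 0.23.

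ISG15 and the enzymes that attach and remove it form a further group. ISG15 (chromosome 1, 948803 to 949920) had 88.5, 93.2 and 105 CPM in ZA and 86.4, 67.5 and 76.3 CPM in SFN+ZA. The groups did not overlap, and the log2 fold change was -0.32 ± 0.39 over 12 libraries and -0.33 ± 0.11 without vehicle 2 and SFN 2, where SFN 2 stood at 20.0 CPM. HERC5, the ligase that attaches ISG15 (chromosome 4, 89378268 to 89427314), had 52.7, 48.4 and 43.7 CPM in ZA and 40.6, 42.0 and 37.4 CPM in SFN+ZA. It too did not overlap, at -0.27 ± 0.25.

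The same group holds ubiquitin ligases and a protease. TRIM21, an antibody receptor in the cytosol and ubiquitin ligase, had 13.5, 19.6 and 20.2 CPM in ZA and 17.4, 13.1 and 15.2 CPM in SFN+ZA, which overlapped (-0.23 ± 0.20). TRIM25, the ubiquitin ligase that acts on RIG-I, was the only member whose SFN+ZA libraries all lay above the ZA libraries. It had 237, 258 and 257 CPM in ZA and 275, 277 and 263 CPM in SFN+ZA, with a log2 fold change of 0.11 ± 0.13 (edgeR adjusted p = 1.0). USP18, the protease that removes ISG15 and damps receptor signalling, stood at 0.13 ± 0.28. Of the 9 members of this group 6 were below 0, with a median of -0.11.

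Among the 12 tested other antiviral effectors, 9 were below 0 and the median was -0.10. RSAD2 had 1.09, 0.992 and 1.01 CPM in ZA and 0.603, 0.511 and 0.803 CPM in SFN+ZA, which did not overlap. These are few reads, 62 in all in ZA and 32 in SFN+ZA, and the log2 fold change was -0.69 ± 0.67. SAMD9, an antiviral factor and growth inhibitor, had 45.7, 34.2 and 30.2 CPM in ZA and 25.9, 34.1 and 30.1 CPM in SFN+ZA, which overlapped (-0.29 ± 0.28). IFI44L had 2.5, 2.46 and 2.60 CPM in ZA and 2.35, 2.44 and 2.16 CPM in SFN+ZA, which did not overlap (-0.12 ± 0.25). MX1, a GTPase that traps viral nucleocapsids, was at 22.8, 23.0 and 22.6 CPM in ZA and at 22.9, 22.6 and 23.0 in SFN+ZA, at a log2 fold change of 0.00 ± 0.13.

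Of the 4 membrane proteins, 3 were below 0 with a median of -0.11. IFITM2, a relative of IFITM3 that acts in endosomes, had 49.2, 48.2 and 46.3 CPM in ZA and 42.3, 43.3 and 44.8 CPM in SFN+ZA. The groups did not overlap, and the log2 fold change was -0.14 ± 0.39. IFITM1 and IFITM2 overlap on the same strand, so the authors' counting could have split or dropped reads between them.

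The last group holds the transcription factors. STAT2, 1 of the subunits of ISGF3 (chromosome 12, 56735381 to 56753939), had 88.2, 92.0 and 99.6 CPM in ZA and 103, 93.2 and 98.1 CPM in SFN+ZA, which overlapped (0.07 ± 0.23). IRF9, the DNA-binding subunit, had 0.988, 1.35 and 0.507 CPM in ZA and 1.27, 1.19 and 1.98 CPM in SFN+ZA, which overlapped (0.61 ± 0.68). IRF9 rested on 61 reads in all in ZA and 74 in SFN+ZA, and it overlaps another gene of the table on the same strand, with which reads may be shared. IRF1 stood at -0.02 ± 0.26 and IRF7 at 0.09 ± 0.52, and 1 of the 4 was below 0, with a median of 0.08; with the GC offset 2 of the 4 were below 0, with a median of 0.01, and without vehicle 2 and SFN 2 the median was 0.07.

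**Figure D3:**
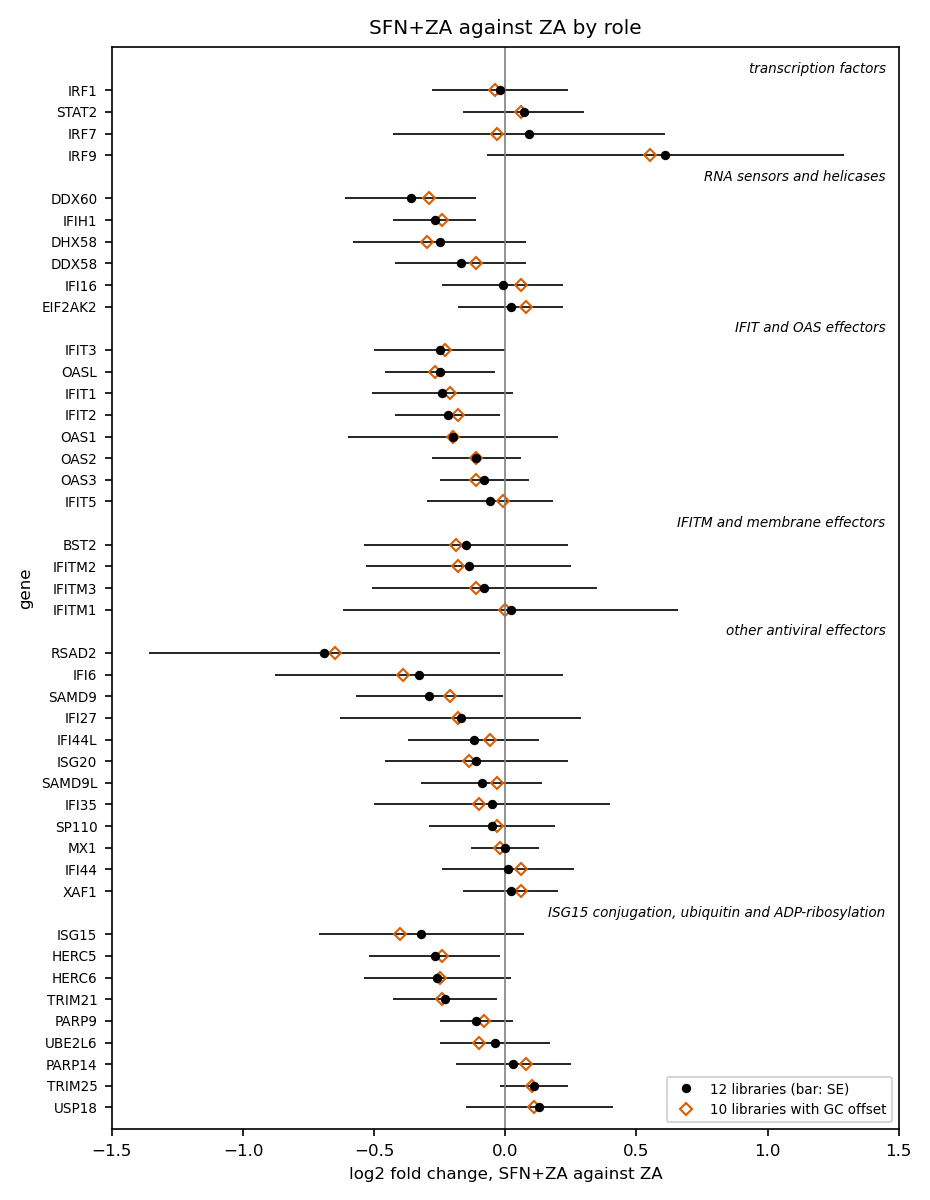
Log2 fold change of SFN+ZA against ZA (x axis) for the 43 tested interferon-stimulated genes, grouped by role; black points come from the fit to 12 libraries with bars of 1 SE, and orange diamonds from the 10 libraries without vehicle 2 and SFN 2 with a correction for GC content. In the IFIT and OAS group all 8 black points lie left of 0, while the black points of 3 of the 4 transcription factors lie right of it, and no member passed the test.

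Genes with and without the ISRE core in the window could be set side by side. Against ZA, 16 of the 21 tested members with the core were below 0, with a median log2 fold change of -0.15, and 11 of the 15 without it, with a median of -0.05. No test was made of this difference, and the 7 members with no promoter entry (IFIT2, OAS2, OASL, DHX58, IFITM2, IRF7 and USP18) are not counted. The search took exact letters at a fixed spacing. Promoters counted as without the core, such as those of OAS1 and RSAD2, can hold GAAA pairs at a closer spacing, so the split is by this search only. In the combination against vehicle, with all 12 libraries, the medians were -0.13 with the core and -0.08 without.

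The combination was next compared with vehicle. This comparison and those of SFN and of ZA against vehicle share the same 3 vehicle libraries, so their values are given side by side without being compared. Of the 43 members 30 were below 0, with a median of -0.13, against a median of 0.011 and 48.9% below 0 over all genes. With edgeR, 0 members were called (0.0% of all genes) and the lowest adjusted p was 0.861. An unadjusted p under 0.05 was reached by 1 member that was lower (1.99% of all genes) and 1 that was higher (2.92%), and DESeq2 called 0 members (0.139% of all genes). The 3 SFN+ZA libraries lay below all 3 vehicle libraries in 8 members (9.63% of all genes) and above them in 3 (11.5% of all genes). As shares of the 43 these counts were 18.6% and 6.98%. Without vehicle 2 the SFN+ZA libraries lay below both vehicle libraries in 13 members (14.4% of all genes) and above them in 3 (15.5%). Over the 10 libraries 38 members were below 0 and the median was -0.15.

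The 2 members with the lowest p were IRF9 and OASL. IRF9 had 0.733, 0.168 and 0.478 CPM in vehicle against 1.27, 1.19 and 1.98 in SFN+ZA, 22 reads in all against 74, with no overlap. Its log2 fold change was 1.69 ± 0.74 (unadjusted p = 0.0425, edgeR adjusted p = 0.861). Without vehicle 2, where it had its lowest vehicle level, and SFN 2 it was 1.27 ± 0.49. OASL had 26.0, 35.9 and 26.4 CPM in vehicle and 23.1, 19.2 and 20.9 in SFN+ZA, again without overlap, at -0.48 ± 0.21 (unadjusted p = 0.0441, edgeR adjusted p = 0.861). Over the 10 libraries OASL was at -0.33 ± 0.14.

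A few members passed the test in 1 setting. Without vehicle 2 and SFN 2 and with an offset for GC content, edgeR called 4 members in SFN+ZA against vehicle, 3 of them lower (0.697% of all genes) and 1 higher (2.34%); they are named after their values were seen. In that fit IFIT3 was at -0.37 ± 0.06 (adjusted p = 0.00587), IFIT1 at -0.37 ± 0.08 (adjusted p = 0.0211) and ISG15 at -0.35 ± 0.08 (adjusted p = 0.0356). STAT2, the subunit of ISGF3, was at 0.31 ± 0.08 (adjusted p = 0.039). Without the offset the same 10 libraries gave 0 called members (0.339% of all genes were called), and IFIT3 then had an adjusted p of 0.0955. The vehicle group holds only 2 libraries in these fits. With all 12 libraries and no offset IFIT3 was at -0.39 ± 0.25, IFIT1 at -0.55 ± 0.27, ISG15 at -0.13 ± 0.39 and STAT2 at 0.25 ± 0.23, and edgeR called none of the 4, with adjusted p values of 0.861 for the first, second and last and 0.917 for ISG15.

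The levels behind these 4 calls differ in how well they separate. IFIT3 had 127, 122 and 130 CPM in vehicle, above every SFN+ZA library. IFIT1 had 74.0, 96.0 and 74.4 CPM in vehicle, likewise above all 3 SFN+ZA libraries. ISG15 had 97.7, 69.6 and 84.1 CPM in vehicle, a range that overlaps the 67.5 to 86.4 CPM of SFN+ZA. STAT2 had 85.3, 90.5 and 72.3 CPM in vehicle, all below the SFN+ZA libraries.

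**Figure D4:**
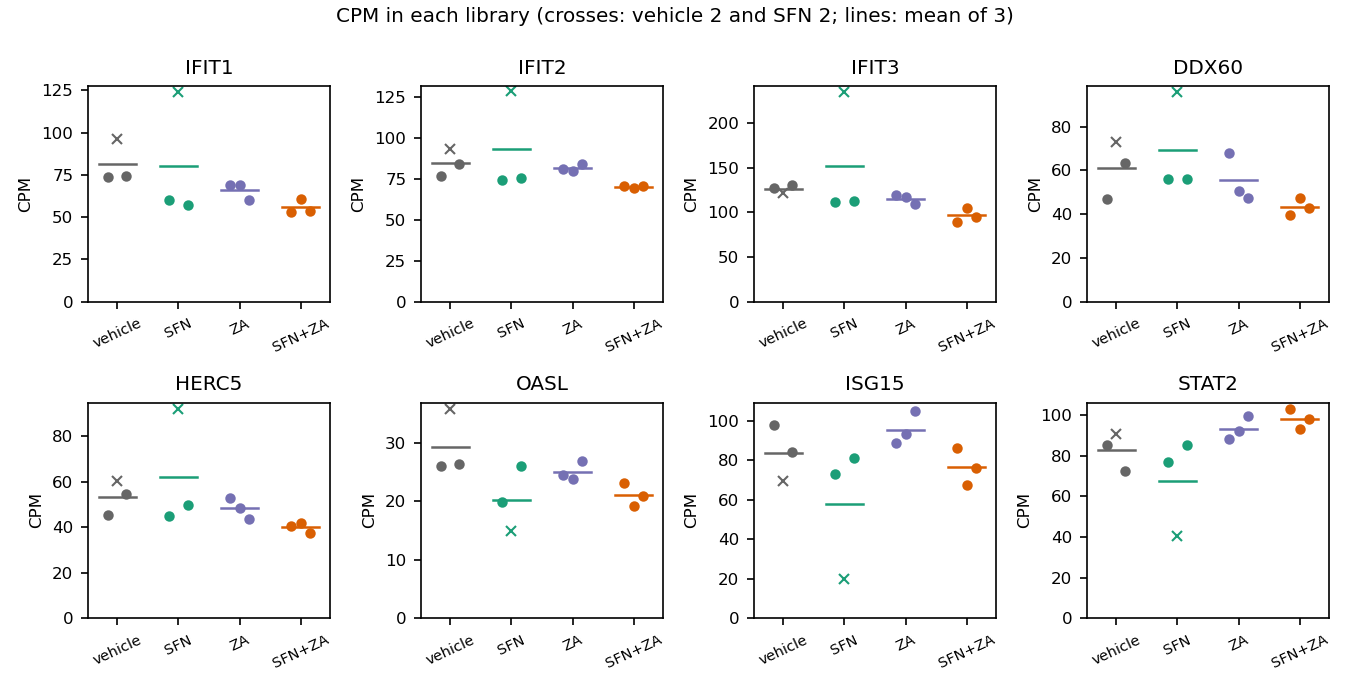
CPM (y axis, from 0) of 8 interferon-stimulated genes in each library of the 4 groups (x axis); dots are libraries, crosses are vehicle 2 and SFN 2, and lines are means of 3 libraries. In IFIT2 the 3 SFN+ZA libraries (69.3 to 71.0 CPM) lie below the ZA libraries (79.7 to 84.3 CPM), while SFN 2 lies far from SFN 1 and SFN 3 in every panel but OASL.

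By role, the combination against vehicle gave the IFIT and OAS group a median of -0.34 with 7 of 8 below 0. Over the 10 libraries without vehicle 2 and SFN 2 all 8 were below 0, with a median of -0.28. All 6 sensors were below 0 in both fits, with medians of -0.16 and -0.13; with the GC offset over 12 libraries 4 of the 6 were. Among them DDX60 had 47.0, 73.0 and 63.3 CPM in vehicle, and was at -0.50 ± 0.25 (edgeR adjusted p = 0.861) and at -0.37 ± 0.17 without those libraries. The membrane proteins turned direction with the 2 libraries. Their median was 0.07 with 1 of 4 below 0 over 12 libraries, and -0.20 with 4 of 4 below 0 over 10; with the GC offset over 12 it was -0.09. The 4 transcription factors had a median of 0.25 with 0 below 0 over 12 libraries, and of 0.19 with 1 below 0, IRF1 at -0.12 ± 0.11, over 10. The other antiviral effectors had medians of -0.14 and -0.11 in these fits, and the ISG15 group of -0.13 and -0.17.

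ZA alone against vehicle gave differences centred near 0. Of the 43 members 24 were below 0, with a median of -0.03 against 0.004 over all genes, of which 49.3% were below 0. EdgeR called 0 members (0.0% of all genes), with a lowest adjusted p of 0.98, and 0 members had an unadjusted p under 0.05 (1.14% of all genes); DESeq2 called 0 as well. The ZA libraries lay below all vehicle libraries in 3 members (6.98%, against 3.05% of all genes) and above them in 0 (4.48%). MX1 was 1 of the 3, with 25.4, 28.5 and 25.4 CPM in vehicle and 22.8, 23.0 and 22.6 CPM in ZA, at -0.21 ± 0.13 (unadjusted p = 0.117, edgeR adjusted p = 0.98). IRF9 had the other of the 2 lowest p values, with a log2 fold change of 1.08 ± 0.74, and its groups overlapped. Over the 10 libraries MX1 was at -0.17 ± 0.11 and IRF9 at 0.68 ± 0.50, 28 members were below 0 and the median was -0.03. The ZA libraries then lay below both vehicle libraries in 4 members (6.36% of all genes) and above them in 1 (7.7%).

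SFN alone against vehicle holds both of the libraries that stand apart. Of the 43 members 24 were below 0, with a median of -0.06 against -0.009 over all genes, of which 50.8% were below 0. EdgeR called 0 members (0.0% of all genes; lowest adjusted p 0.728), 2 were lower at an unadjusted p under 0.05 (1.9% of all genes) and 1 was higher (3.08%), and DESeq2 called 0. Without vehicle 2 and SFN 2, 26 were below 0, the median was -0.11 and 0 were called. The SFN libraries lay below all vehicle libraries in 3 members (6.98%, against 3.48% of all genes) and above in 1 (2.33%, against 4.4%). Without the 2 libraries, 2 against 2, they lay below in 13 (23.0% of all genes) and above in 3 (24.6%).

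The members lower at that threshold were OASL and USP18. OASL had 19.9, 15.0 and 26.0 CPM in SFN against 26.0 to 35.9 CPM in vehicle, at -0.54 ± 0.21 (unadjusted p = 0.0278, edgeR adjusted p = 0.728). The nearest libraries of the groups, SFN 3 and vehicle 1, were equal to 3 digits. Without vehicle 2 and SFN 2, which held its highest vehicle and lowest SFN level, it was at -0.20 ± 0.15. USP18 had 1.73, 2.47 and 2.21 CPM in vehicle and 1.29, 1.76 and 0.912 CPM in SFN, which overlapped. It was at -0.69 ± 0.29 (unadjusted p = 0.0341, edgeR adjusted p = 0.728) and at -0.85 ± 0.33 without those libraries. The member that was higher, IFI16, had 161, 287 and 145 CPM in SFN and 123, 136 and 153 CPM in vehicle, and its log2 fold change went from 0.52 ± 0.23 to 0.14 ± 0.14 without them.

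The combination against SFN turned on SFN 2. With all libraries 20 of the 43 members were below 0 and the median was 0.06, against 0.045 over all genes, of which 47.7% were below 0. Without vehicle 2 and SFN 2, 27 were below 0 and the median was -0.08. EdgeR called 0 members (0.0% of all genes; lowest adjusted p 0.223), 10 were lower at an unadjusted p under 0.05 (15.4% of all genes) and 1 was higher (6.43%), and DESeq2 called 0 (0.0396% of all genes). The groups did not overlap in 15 members that were lower (23.7% of all genes) and 3 that were higher (23.4%), which are 34.9% and 6.98% of the 43. Without the 2 libraries 5 were lower and 2 higher at that threshold, where 11.5% and 12% of all genes were, and the groups did not overlap in 15 that were lower (27.1% of all genes) and 4 that were higher (26.6%).

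IFIH1 and SAMD9 had the lowest p values there. IFIH1 had 23.2, 29.8 and 24.4 CPM in SFN, above the 16.0 to 19.3 CPM of SFN+ZA, also when SFN 2 is set aside. It was at -0.51 ± 0.16 (unadjusted p = 0.00972, edgeR adjusted p = 0.223) and at -0.40 ± 0.14 without vehicle 2 and SFN 2. SAMD9 had 36.4, 77.9 and 42.0 CPM in SFN, above the 25.9 to 34.1 CPM of SFN+ZA. It was at -0.79 ± 0.28 (unadjusted p = 0.0158) and at -0.39 ± 0.18 without the 2 libraries.

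The interaction asks whether the combination differs from the sum of the single treatments on the log2 scale. It was centred near 0, with 22 of 43 members below 0 and a median of -0.02, against 0.036 over all genes, of which 47.6% were below 0. EdgeR called 0 members (0.0% of all genes; lowest adjusted p 0.901), 1 was lower at an unadjusted p under 0.05 (1.06% of all genes) and 0 were higher (0.634%), and DESeq2 called 0. IFIH1 was at -0.53 ± 0.23 (unadjusted p = 0.0411) and USP18 at 0.82 ± 0.40 (unadjusted p = 0.0649), both with an edgeR adjusted p of 0.901. In the 10 libraries IFIH1 was at -0.40 ± 0.20 (unadjusted p = 0.0705 by edgeR) and USP18 at 0.97 ± 0.41 (unadjusted p = 0.0352).

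Genes around the pathway were described from 3 further lists. Of 16 receptor and signalling genes, all tested, 9 were below 0 in SFN+ZA against ZA, with a median of -0.02 and 0 calls by edgeR. IFNGR1, a chain of the type II receptor, had 38.0, 25.7 and 28.9 CPM in ZA and 25.5, 28.6 and 26.4 CPM in SFN+ZA, which overlapped, at -0.20 ± 0.20 (edgeR adjusted p = 1.0). Of 15 tested genes of nucleic acid sensing and interferon induction, 9 were below 0, with a median of -0.05 and 0 calls. TRAF6, an adaptor ligase of the sensors that signal through it, was at -0.23 ± 0.23 and AIM2, a DNA sensor of the inflammasome, at 0.18 ± 0.24.

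Of 36 tested further interferon-stimulated genes, which are not among the 44, 22 were below 0, with a median of -0.04 and 0 calls. RNF213, a large ubiquitin ligase, went the other way from most members, with 214, 225 and 220 CPM in ZA and 272, 260 and 281 CPM in SFN+ZA. The groups did not overlap, and the log2 fold change was 0.30 ± 0.12 (unadjusted p = 0.0286, edgeR adjusted p = 1.0). TNFSF10, the death ligand TRAIL, had 55.1, 46.9 and 43.5 CPM in ZA and 37.3, 40.2 and 34.2 CPM in SFN+ZA, without overlap, at -0.38 ± 0.25 (edgeR adjusted p = 1.0).

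The authors' deposited table gave 0 of the 44 members an adjusted p under 0.05 in the 5 pairwise comparisons described here. For SFN+ZA against ZA the authors' deposited table listed 34 members below 0, a median log2 fold change of -0.12 and 6 members with an unadjusted p under 0.05, against the 0 of the fit above. These 6 were ISG15 (-0.33, p = 0.0126), DDX60 (-0.37, p = 0.0212), IFIT3 (-0.26, p = 0.023), HERC5 (-0.28, p = 0.0315), IFIT2 (-0.23, p = 0.0342) and IFIT1 (-0.26, p = 0.0418) in the authors' deposited table, each with an adjusted p of 1.0.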

How the data were processed

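Total RNA of MDA-MB-231 cells was column-purified and sequenced with Illumina libraries, per the labels' protocols. The authors deposited 1 table of raw read counts per gene with FPKM values, gene lengths and coordinates. Alignment used HISAT2, with no version given, on GRCh37/hg19, per the submitters' processing notes. Not given in the sources used here are the kit, the annotation, and how reads were assigned to genes and strands. The authors' deposited table also held log2 fold changes and p-values, raw and adjusted, of the pairwise comparisons. The deposited FPKM values were not used for any result; the authors' log2 fold changes and p-values are quoted as theirs. A gene name occurred more than once for 2267 genes, so genes were joined by Ensembl identifier.

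The test was edgeR 4.0.16 (R 4.3.3), with its robust quasi-likelihood fit of 4 group means over the 12 libraries and two-sided F tests, after TMM scaling. filterByExpr left 15142 genes. Calls used a threshold of 0.05 on p adjusted by Benjamini-Hochberg across these genes. CPM used TMM-scaled totals; ± is the SD over 3 libraries for CPM and the SE for log2 fold changes. CPM per kb used the deposited gene lengths. GC content came from the longest GENCODE transcript of the same Ensembl identifier (97.4% of tested genes, and 43 of 43 tested members); the GC offset was a lowess trend per library with span 0.3. The edgeR fit of all 12 libraries, with and without the GC offset, was also run on simulated counts, for SFN+ZA against ZA only. The fits of 10 libraries were not run on simulated counts.

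The pairing of replicate numbers was checked by the correlation of deviations from the group means. Same-numbered vehicle and SFN libraries correlated at 0.279 to 0.654, over 0.1 in every pair, which held for no other pair of groups. Differently numbered libraries could correlate as well, vehicle 1 with SFN 3 at 0.522 and vehicle 3 with SFN 1 at 0.372. Differently numbered pairs of a vehicle with an SFN library that held vehicle 2 or SFN 2 ran from -0.649 to -0.361. With other groups these 2 libraries could correlate positively, vehicle 2 with ZA 1 at 0.473 and SFN 2 with ZA 1 at 0.433. The correlations therefore cannot show that the numbers pair the libraries, and the block was fitted only as an alternative. The replicate block changed no call.

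The alternatives were DESeq2 1.42.0, its size factors, other filters on low counts, the compared groups alone, the replicate block, the GC offset, fits without vehicle 2 and SFN 2 (10 libraries) and leaving out each library. The replicate block on SFN and vehicle alone was added after seeing the data. The members, lists, tests and alternatives were chosen with earlier results of these data known. Named genes were every called member, the 8 members with the lowest p in SFN+ZA against ZA, the 2 lowest in each other comparison, the 3 highest per kb and the 2 lowest of each further list; others named were chosen after their values were seen. A gene that the rule named is not reported here. Promoters were matched by symbol to RefSeq on GRCh38.p14 (37 of 44; DDX58 is listed there as RIGI).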

Additional observations from a re-analysis of the deposited data

How the results depend on the processing

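In the alternatives run, the count of called members left 0 in 1 of 132 values: SFN+ZA against vehicle without vehicle 2 and SFN 2 and with the GC offset gave 4 (IFIT1, IFIT3, ISG15 and STAT2). Leaving out each library in turn gave 0 called members in every comparison; in SFN+ZA against ZA it gave 31 to 37 members below 0 and a median of -0.14 to -0.10. The 484 values of named genes cover 15 genes, each in the comparisons that named it by a low p or a call. Of these values 480 kept their direction and their side of the threshold, 4 passed it and 0 changed sign. That choice made a change of sign less likely, and other members did change sign. In SFN+ZA against ZA, IRF7 went from 0.09 to -0.04 and IFI16 from -0.01 to 0.06 with the GC offset over 12 libraries. Over all alternatives the members' median ran from -0.16 to -0.09 in SFN+ZA against vehicle, from -0.16 to -0.02 in SFN against vehicle and from -0.05 to 0.04 in ZA against vehicle. The median of SFN+ZA against SFN ran from -0.08 to 0.12 and turned sign with the GC offset (-0.05), with both libraries left out (-0.08) and without SFN replicate 2 (-0.08); the interaction ran from -0.14 to 0.10. The cause was not tested.

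With the replicate block 0 members were called in every comparison, and the median was -0.12 in SFN+ZA against ZA and -0.07 in SFN against vehicle; fitted to SFN and vehicle alone with the block it was -0.11. Same-numbered libraries of ZA and SFN+ZA correlated at -0.336 to -0.0965, which gave no sign of a pairing by number.

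In SFN+ZA against ZA 159 of all genes had an unadjusted p under 0.05, against 960 without vehicle 2 and SFN 2 and 1769 with the GC offset as well; of the members 0, 7 and 13 did, all lower. Low members (IRF9, RSAD2, OAS1, USP18) rest on 22 to 107 reads a group, so only large differences could be seen in them. The strand setting limits IFIT1, IFIT2 and IFIT3, which overlap LIPA.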

Other observations

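CMPK2, the member that was not tested, had 0, 0 and 0 counts in vehicle, 5, 5 and 3 in SFN, 0, 2 and 2 in ZA, and 1, 7 and 0 in SFN+ZA. The SFN libraries, with 13 counts in all, each lay above the vehicle libraries, where 0 counts allow a level of up to 0.061 CPM, and the authors' deposited table gave an unadjusted p of 0.0241 and an adjusted p of 0.996 for SFN against vehicle. CMPK2 overlaps RSAD2 on the other strand, and RSAD2 had 2, 33 and 18 counts in vehicle and 7, 8 and 19 in SFN, with overlapping groups.

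In 21 of the 44 members the gene overlaps another gene of the table, 7 on the same strand and 17 on the other, and in 23 it does not. PARP9, which modifies proteins with ADP-ribose together with DTX3L, shares a promoter region with DTX3L on the other strand. PARP9 averaged 19.1 ± 1.27 CPM in vehicle, 17.0 ± 1.46 in SFN, 18.6 ± 1.47 in ZA and 17.2 ± 0.722 in SFN+ZA, as mean ± SD of 3 libraries. DTX3L averaged 68.2 ± 4.95, 74.1 ± 9.08, 58.3 ± 9.61 and 61.8 ± 4.48 CPM.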
